A study of Homo sapiens with 28 samples.

Results

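Distal open chromatin found in a single myeloma line was examined, defined as merged ATAC-seq regions more than 2500 bp from the nearest annotated transcription start, called as a peak in exactly 1 of 22 untreated lines and covered there by at least 10 CPM (counts in the region per 1000000 counts of the library in all regions). Such private distal regions numbered 10107 of the 154985 merged regions (6.52%), of the 103798 distal regions called in at least 1 untreated line (9.74%) and of the 46468 distal regions called in exactly 1 (21.8%). The calls and CPM of the 22 untreated libraries chose these regions, so their number and their levels in those libraries are descriptions and carry no test.

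The 22 lines are established human multiple myeloma cell lines, grown without drug in RPMI medium with fetal bovine serum, and each was assayed once on sorted viable cells, so there is no error within a line. For Karpas620, KMS27, L363, MM1S, OPM2 and RPMI8226 a second library had been made from cells treated with 10 µM lenalidomide, a drug that directs the breakdown of IKZF1 and IKZF3, and collected on day 3. Lenalidomide libraries were not used to choose the regions. A culture line is descended from the tumor of 1 person, so a line here stands for itself and not for a class of myeloma.

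ATAC-seq uses a transposase that cuts and tags DNA where nucleosomes are absent or displaced. Open sites far from promoters are mostly enhancers and insulators, they differ between cell types much more than promoters do, and they are bound by the transcription factors active in that cell. In myeloma, translocations and copy number changes also differ between tumors, and a gained segment yields more reads at every site within it.

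Untreated libraries held 1599857 to 5564534 counts (median 2239819), so that 10 CPM stood for 16 to 55.6 counts, and 18943 to 58983 regions were called per library. Promoters of the plasma cell genes SDC1, TNFRSF17, XBP1, PRDM1, IRF4, CD38 and POU2AF1 were called in 19 to 22 of the 22 lines and that of SLAMF7 in 6, whereas the promoter of the B cell gene MS4A1 was called in 2 lines, that of CD22 in 1 and those of the T cell genes CD3E and CD3D in 1 and 2. Not all promoters of other cell types were closed. PAX5, of B cells, was called in 12 lines, CD247, of T and NK cells, in 20, GATA3 in 9 with up to 45.8 CPM and TBX21 in 7 with up to 31.8 CPM. The myeloid genes CD14, ITGAM and CSF1R were called in 3, 2 and 1 lines, and CEBPA had no promoter region in the table by its symbol.

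The untreated libraries of KMS34 and PE1 stood apart as a pair. Over the distal regions called in any untreated line their log2(CPM + 1) values had a Pearson correlation of 0.87, against 0.69 for the next most similar pair, KMS28 and KMS34, and a median of 0.51 over all pairs of untreated lines. Untreated and lenalidomide libraries of the same line gave 0.80 to 0.89, and KMS12BM and KMS12PE gave 0.62. PE1 called 76.3% of the distal regions that reached 10 CPM in KMS34, and KMS34 called 88.2% of those of PE1. A site that both lines share cannot be private to either, and the tests over the 22 lines are also given without KMS34 and PE1. KMS12BM and KMS12PE, which share a line name, entered the tests as separate lines. The tests were not repeated with them as 1.

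Sequences of 7 private regions are shown to make the members concrete, each as the central 200 bases of the region on the plus strand of GRCh37. The first 3 are the highest private regions of Karpas620, RPMI8226 and PCM6, in which capitals mark any match to the 16 motifs searched; the RPMI8226 stretch held no match and is all in lower case.

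Karpas620, chr15:99318716-99318915: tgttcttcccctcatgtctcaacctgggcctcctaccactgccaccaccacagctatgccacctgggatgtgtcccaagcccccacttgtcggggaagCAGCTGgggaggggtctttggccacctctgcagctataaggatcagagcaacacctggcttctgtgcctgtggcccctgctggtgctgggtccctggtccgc
RPMI8226, chr5:112788615-112788814: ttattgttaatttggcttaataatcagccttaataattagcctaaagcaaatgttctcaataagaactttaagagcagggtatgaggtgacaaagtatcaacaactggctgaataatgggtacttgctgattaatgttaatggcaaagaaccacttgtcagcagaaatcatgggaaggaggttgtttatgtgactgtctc
PCM6, chr9:37954261-37954460: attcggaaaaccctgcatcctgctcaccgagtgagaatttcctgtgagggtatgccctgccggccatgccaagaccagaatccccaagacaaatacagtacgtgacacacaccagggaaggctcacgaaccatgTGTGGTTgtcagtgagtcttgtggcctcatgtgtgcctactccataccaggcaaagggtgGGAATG

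The next 4, looked for on part of the chromosomes, are the highest private regions of their line that carried in these 200 bases the motif most in excess there, with that motif alone in capitals. KMS26 is shown for the E-box CAGCTG, XG-6 for the octamer, which occurs once on each strand, KMS11 for the RUNX letters and KMS27 for AP-1. These 4 lines and motifs were picked after their values were seen.

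KMS26, chr12:25178862-25179061: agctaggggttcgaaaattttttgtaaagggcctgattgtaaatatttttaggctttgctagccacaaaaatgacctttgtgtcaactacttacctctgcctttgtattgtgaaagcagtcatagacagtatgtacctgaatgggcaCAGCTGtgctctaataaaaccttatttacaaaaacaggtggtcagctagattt
XG-6, chr1:207921478-207921677: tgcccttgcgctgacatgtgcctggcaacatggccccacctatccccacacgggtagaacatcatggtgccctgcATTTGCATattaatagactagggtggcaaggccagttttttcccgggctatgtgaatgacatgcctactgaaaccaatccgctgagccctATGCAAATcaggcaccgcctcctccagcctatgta
KMS11, chr6:157504089-157504288: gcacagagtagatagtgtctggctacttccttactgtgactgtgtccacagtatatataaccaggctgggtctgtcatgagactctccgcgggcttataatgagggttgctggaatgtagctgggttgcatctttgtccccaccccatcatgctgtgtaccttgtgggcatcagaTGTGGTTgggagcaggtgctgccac
KMS27, chr1:100009906-100010105: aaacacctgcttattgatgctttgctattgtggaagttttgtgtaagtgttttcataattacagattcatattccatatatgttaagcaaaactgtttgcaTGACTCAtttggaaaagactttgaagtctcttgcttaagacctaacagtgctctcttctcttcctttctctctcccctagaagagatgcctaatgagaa

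The KMS26 sequence lies in an intron 21686 bp from the start of the nearest protein-coding gene, IRAG2, and its region had 74.0 CPM there and at most 5.05 CPM in any other untreated line. The XG-6 sequence is intergenic, 3804 bp from the start of CD46, a complement regulator, with 38.7 CPM in XG-6 and at most 11.1 CPM elsewhere. In KMS11 the region had 36.3 CPM and lies in an intron for which the nearest annotated start is that of ARID1B, a chromatin remodeling subunit, with at most 3.04 CPM elsewhere. In KMS27 the region had 30.4 CPM, was intergenic and lay 101663 bp from PALMD. It reached 15.3 CPM in KMS26 without a call there.

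The number of private regions differed widely between lines. PCM6 had 1797 and H1112 had 1796, which together made up 3593 or 35.5% of all members. OCIMY5 followed with 844, Karpas620 with 799, RPMI8226 with 688, XG-6 with 618 and KMS20 with 616. U266 had 421, OPM2 356, KMS11 319, KMS12PE 308, KMS12BM 257, with KMS26 between them, KMS28 220 and KMS27 188. The lowest numbers were 144 in MM1S, 134 in LP1, 113 in KMS21BM, 99 in PE1, 56 in KMS18, 42 in KMS34 and 26 in L363, and the median line had 287. As a share of the distal regions a line called with at least 10 CPM, private regions ran from 0.468% in KMS34 to 14.5% in PCM6, with a median of 3.23%. After TMM scaling, which adjusts for the composition of each library, H1112 had 2069, PCM6 1797 and KMS21BM 75.

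**Figure D1:**
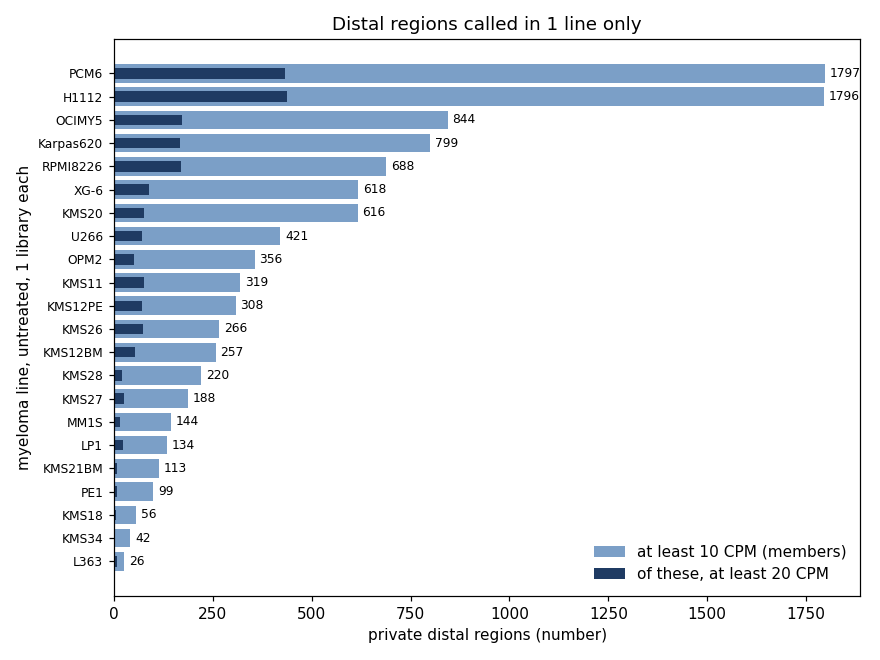
Number of private distal regions in each of the 22 untreated lines (horizontal axis, number of regions). Light bars count all members and dark bars those of at least 20 CPM; PCM6 and H1112 have 1797 and 1796, and L363 has 26.

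The order was not that of sequencing depth. PCM6 reached its 1797 regions with 2150806 counts, below the median library, while H1112 was the deepest library at 5564534. Across the 22 lines the number of private regions and total counts had a Pearson r of 0.45 and a Spearman rho of 0.34, and r was 0.09 without the 2 lines farthest in depth. With the number of called regions r was 0.70 and rho 0.67, and r was 0.61 without the 2 farthest lines. These values share libraries, since a line with more calls has more regions that can be private, and they are given as descriptions over 22 lines.

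A private region typically had 13.9 CPM in its own line, 3.78 CPM in the highest other line and 0.865 CPM in the median other line (medians over the 10107). In 6697 (66.3%) every other line was below 5 CPM. Being called in 1 line did not always mean being high in 1 line, since 668 (6.61%) had at least 10 CPM in another line without a call there, and in 188 (1.86%) the own line was not the highest. Most members sat near the threshold: 1720 had 10 to 11 CPM, 2055 had at least 20 CPM and 82 had at least 50 CPM. A further 2169 regions with 9 to 10 CPM were otherwise private and fell just outside. The member closest to the threshold was a PE1 region with AGBL1 as its nearest protein-coding start (chr15:87193324-87193752) and 10.0009 CPM, and the closest region left out was one of KMS12BM near KIF20B (chr10:91688998-91689557) with 9.9932 CPM.

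KMS34 and PE1 differed from this pattern. Members of KMS34 had a median of 12.8 CPM in KMS34 and 10.6 CPM in PE1, PE1 was the highest other line for 34 of 42 (81.0%), and 29 of 42 had at least 10 CPM in some other line. For PE1, KMS34 was the highest other line at 46 of 99 members (46.5%), where the medians were 13.1 CPM in PE1 and 5.63 CPM in KMS34. Elsewhere no single line was the highest other line for more than 20.1% of members. For KMS12BM and KMS12PE, which carry the same line name with different suffixes, the figures were 20 of 257 and 38 of 308. Counting KMS34 and PE1 as 1 line, so that regions called in either or both qualified, gave 10214 private regions in place of 10107, with 248 for the pair in place of 42 and 99.

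**Figure D2:**
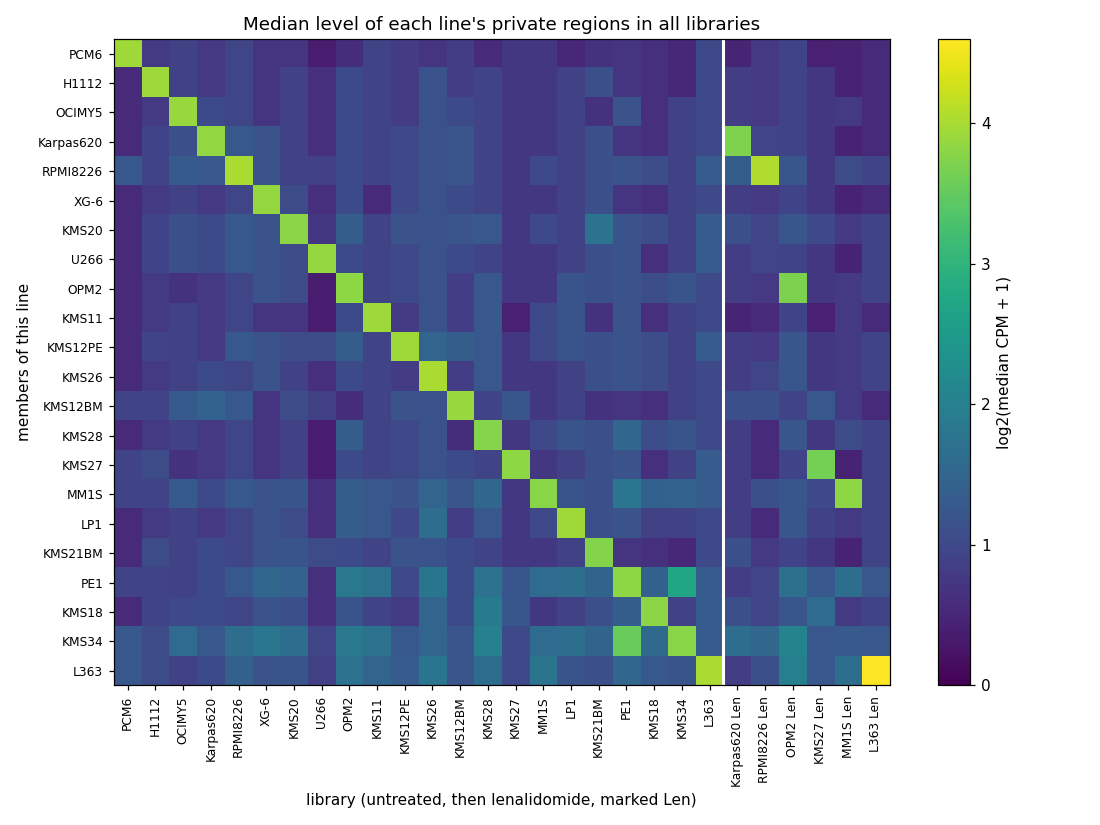
Median level of each line's private regions (rows) in the 22 untreated and 6 lenalidomide libraries (columns, the latter marked Len), as log2(median CPM + 1) by color. The diagonal is set by the choice of regions (12.5 to 15.3 CPM), KMS34 and PE1 also have raised values in each other (10.6 and 5.63 CPM), and own lenalidomide libraries have 11.5 to 23.3 CPM.

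The highest private region of each line ran from 19.5 CPM in KMS34 to 105 CPM in PCM6, with a median of 61.7 CPM. The PCM6 region (chr9:37953916-37954806), whose central sequence is shown above, lies in an intron, and SLC25A51, which carries NAD+ into mitochondria, has the nearest protein-coding start, 50011 bp away. It had 225 counts in PCM6 (95% Wilson interval 91.8 to 119 CPM, counting error only) and 0 to 5.73 CPM in the other 21 lines with a median of 1.47. The Karpas620 region (chr15:99318417-99319216) lies in an intron 127048 bp from the start of IGF1R, the receptor for insulin-like growth factor 1. It had 97.1 CPM in Karpas620 against a median of 2.29 and a highest value of 12.3 CPM, in U266. The group of other lines did not overlap the own line in either case, as the choice of the region favors.

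Further regions of this height were intergenic or intronic. KMS12PE had 92.6 CPM at chr1:194828060-194829285, 1672929 bp from the nearest protein-coding start, that of B3GALT2, where the other lines had 0 to 5.61 CPM. H1112 had 85.0 CPM at chr1:238639923-238640607 and at most 5.36 CPM elsewhere. The nearest protein-coding start there, that of ZP4, was 586043 bp away, but the annotated start of RP11-177F15.1 was much nearer. KMS26 had 83.8 CPM at chr16:81741341-81742421 and 0.789 to 5.74 CPM elsewhere. The nearest annotated start there was that of CMIP, 3878 bp away. The nearest first base of a whole protein-coding gene in GENCODE was that of PLCG2, 71003 bp away, which encodes a phospholipase of B cell receptor signaling. OCIMY5 had 79.3 CPM in an intron at chr17:57910243-57910719, where the nearest annotated start was that of VMP1, a gene of autophagy, and, by the first bases of whole genes in GENCODE, the nearest protein-coding start was that of TUBD1, a tubulin, 59825 bp away. RPMI8226 had 78.9 CPM at chr5:112788276-112789154, which was 30.9 times its highest value elsewhere (2.55 CPM, in L363). By contrast, the highest KMS34 region, in an intron near OCA2, had 19.5 CPM beside 11.9 CPM in PE1. The highest PE1 region, near NKIRAS1, had 28.8 CPM beside 4.31 to 18.8 CPM in other lines.

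The nearest protein-coding starts of the members belonged to 4956 genes. Of these, 3126 had private regions of 1 line only, 1830 of 2 lines or more, 136 of at least 5 lines, and 5 genes had private regions of 9 lines. Those 5 were LRRC4C, a synaptic adhesion protein, with 21 members among 97 distal regions assigned to it, NCAM2, a neural adhesion molecule, with 17 of 85, GBE1, the glycogen branching enzyme, with 15 of 96, NAALADL2 with 14 of 91 and TENM3, a teneurin, with 11 of 95. Each of the 5 had 85 to 97 distal regions assigned to it.

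Within a line the gene with most private regions drew 2 to 10 of them. In PCM6 this was PCDH7, a protocadherin, with 10 members of up to 66.0 CPM spread over 2558 kb. They were 10 of the 159 distal regions assigned to PCDH7, and another 13 were private to other lines. For the next genes, too, the second number is that of distal regions assigned to the gene. Of all distal regions called in an untreated line, 9.74% were private to some line. XG-6 had 9 of 59 near EYS, a gene of photoreceptors, with up to 42.4 CPM and none there from any other line. H1112 had 8 of 39 near MC4R, the melanocortin receptor of appetite control, OCIMY5 had 7 of 46 near PHTF2 and KMS20 had 7 of 74 near TMEFF2. RPMI8226 had 6 of 40 near CD180, a Toll-like receptor homolog of B cells, with up to 24.6 CPM, and 6 other distal regions there that were not private. KMS11 had 5 of 23 near FEZF1, a transcription factor of the developing forebrain, and these 5 lay within 79.5 kb with up to 51.9 CPM. OPM2 had 5 of 93 near PLA2G4A, KMS27 5 of 25 near EPHA4, Karpas620 4 of 65 near TNS3 and KMS26 4 of 20 near OLFM3. Near the genes listed from MC4R on, other lines had 0 (OLFM3) to 6 (TNS3) private regions. The nearest start names a position and does not show which gene, if any, a region regulates.

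Of 18 genes on a list of those that myeloma translocations and focal gains involve, 13 had any, with 48 members (0.475%) in 14 lines, beside 0.312% of all called distal regions and 0.376% of those with at least 10 CPM that were not private. TENT5C, a poly(A) polymerase recurrently mutated in myeloma, had a PCM6 region with 64.2 CPM in an intron 3923 bp from its start (chr1:118152370-118152817), where the other lines had a median of 7.21 and a highest value of 19.04 CPM, in KMS34. CCND1, cyclin D1, had a KMS12BM region with 28.9 CPM in an intron (chr11:69469377-69469603), and the highest other line was KMS12PE with 15.5 CPM. Private regions nearest to MAF came from 6 lines, with highest values of 11.8 to 26.7 CPM, those of MYC from 4 lines (13.4 to 27.0 CPM) and those of MYCN from 4 (10.99 to 25.6 CPM). The highest MAF region of each line lay 9246 bp (RPMI8226) to 594299 bp (OCIMY5) from its start. Other lines had up to 16.5 CPM at these MAF regions, at that of LP1. At the MYCN region of MM1S, KMS28 was higher than MM1S, with 12.99 CPM. IRF4, a factor on which myeloma cells depend, had a PCM6 region with 24.2 CPM, 37761 bp from its start.

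For the other gene lists the share of members is set beside the share of all called distal regions and that of other distal regions of at least 10 CPM. Genes of the B cell program that plasma cells turn off held 0.109% of members, 0.159% of all and 0.231% of other distal regions, the lowest share being that of members. Plasma cell genes held 0.277%, 0.237% and 0.283%. T and NK cell genes held 0.366%, 0.278% and 0.250%, the highest share being that of members. Myeloid genes held 0.0495%, 0.0530% and 0.0547%, and NF-kB pathway genes 0.119%, 0.110% and 0.128%. Adhesion genes held 0.327%, 0.264% and 0.271%, and large neuronal genes 0.683%, 0.617% and 0.585%. No member was nearest to any of 9 erythroid genes, which held 13 of all distal regions and 3 of the other distal regions. With 5 to 69 members a list, these shares are descriptions.

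Neighbors of private regions were private more often than neighbors of other regions. Within 100 kb of another private region of the same line lay 2411 members (23.9%), by line from 4.17% in MM1S to 35.1% in PCM6 (median 13.5%, or 15.4% without KMS34 and PE1). This share grows with the number of members, so neighbors were compared too. Among distal regions of at least 10 CPM that were next to a private region and within 100 kb, a median of 10.3% were private as well, against 3.49% of those next to other distal regions (11.5% and 3.66% without KMS34 and PE1). The first share was the higher in 22 of 22 lines, by 1.36 times in KMS12BM to 11.9 times in L363, the latter on 2 members only. In KMS27 it was 17.1% against 2.94%, and in PCM6 23.3% against 14.8%. This comparison was added after the data were seen and describes the regions the rule chose.

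**Figure D3:**
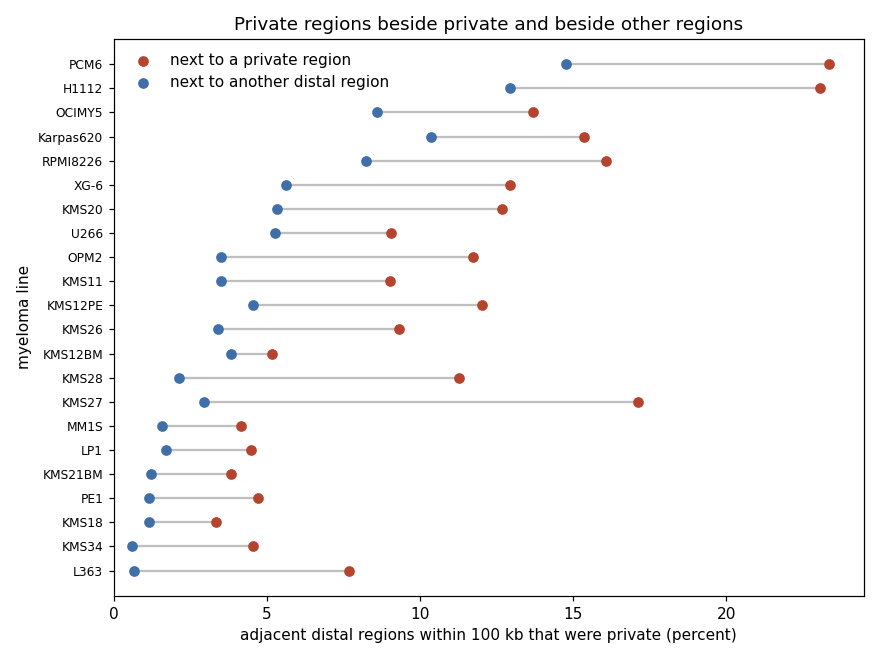
Share of adjacent distal regions within 100 kb that were private, in percent, for regions next to a private one (red) and next to another distal region (blue) in each of 22 lines, 1 library each. Red lies to the right of blue in all 22 lines, for example 17.1% against 2.94% in KMS27.

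Joined with gaps of at most 100 kb, the members formed 1053 chains, of which 842 were pairs, 156 held 3 members, 36 held 4 and 19 held 5 or more. Here and below, a chain at a gene is one whose members had that gene as the nearest protein-coding start, whatever the distance. The longest were 2 chains of 9 in PCM6. One covered 196 kb at EML1, a microtubule protein, and EVL, an actin regulator (chr14:100201056-100396713), and its members had 20.9, 22.8, 22.3, 31.6, 10.7, 19.1, 13.02, 13.5 and 16.3 CPM in order along the chromosome. Outside PCM6 the highest value at any of the 9 was 12.4 CPM. The other covered 300 kb nearest to the start of SEMA3D, a secreted semaphorin (chr7:85203178-85503003), with 10.2 to 36.7 CPM and at most 4.38 CPM in other lines. All 9 of its members were intergenic. Around the first chain background reads in PCM6 were 1.94 times those of other lines, and around the second 1.15 times. After division of each region by the ratio around that region, 5 of the 9 of the first chain and 7 of the 9 of the second still had at least 10 CPM. Background reads are counts in regions called in neither of the lines compared, within 1 Mb, and are used here for the local level of DNA or of unspecific cutting, which cannot be told apart.

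OCIMY5 had a chain of 8 at NFKB1, which encodes the p105 and p50 NF-kB subunit, SLC39A8, a zinc and manganese importer, and MANBA, a lysosomal mannosidase (chr4:103341675-103580247). In order along the chromosome the 8 regions had 13.3, 10.6, 33.6, 14.7, 45.7, 68.7, 39.8 and 20.6 CPM, and no other line went above 5.21 CPM at any of them. Background reads there were 3.29 times those of other lines. After division of each region by the ratio around that region, 4 of the 8 still had at least 10 CPM, the highest 21.5. A second OCIMY5 chain, of 6 at PHTF2 (chr7:78083260-78188200), had 12.97 to 35.96 CPM with a ratio of 2.07, and 4 of 6 stayed at 10 CPM or more.

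The other chains of 6 or 7 differed in this respect. H1112 had 6 regions nearest to the start of DAP, a death-associated protein (chr5:10913922-11157643), with 12.0 to 48.0 CPM and at most 4.38 CPM in other lines. KMS20 had 6, all intergenic, nearest to the start of TMEFF2 (chr2:193937356-194029094), with 15.7 to 23.0 CPM and at most 6.11 CPM in other lines. In both chains all 6 stayed at or above 10 CPM after division. PCM6 had 7 at SHB, an adaptor protein, and SLC25A51 (chr9:37953916-38091614), among them its highest private region, and 6 of 7 stayed. In H1112, 4 of 7 stayed in the chain nearest to MC4R (chr18:58146929-58324223, 13.7 to 28.4 CPM) and 4 of 6 in that nearest to ZFP42 and TRIML2 (chr4:188923404-189034727, 11.1 to 73.1 CPM). Other lines had at most 12.2 CPM in the first and 4.65 CPM in the second. KMS12PE had 6 at SPAG6 and COMMD3 (chr10:22601224-22788346) with 13.5 to 20.9 CPM, where another line reached 15.1 CPM. Background reads around this chain were 2.62 times those of other lines, and none of the 6 stayed at 10 CPM.

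Chromosomes were unevenly used in some lines. The largest ratio, 6.58, was that of KMS34, with 6 of 42 private regions (14.3%) on chromosome 19 against 2.17% of its other distal regions. KMS18 had 16 of its 56 private regions (28.6%) on chromosome 8, which held 10.7% of its other distal regions, and MM1S had 30 of 144 (20.8%) on chromosome 3 against 10.4%. Among lines with more members, H1112 had 133 (7.41%) on chromosome 18 against 4.46% and KMS26 had 12 (4.51%) on chromosome 22 against 1.16%. The chromosome of each line was picked for its ratio, so these shares are descriptions.

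Background reads were higher around private regions than around the other distal regions of the same line that were called with at least 10 CPM. The difference was positive in 22 of 22 lines, from 0.06 in PCM6 to 0.29 in KMS26, with a mean of 0.17 ± 0.07 (SD, n = 22 lines) on the log2 scale. A two-sided sign-flip permutation test over lines gave p = 1e-05, the smallest that 100000 draws can give, and p = 2e-05 after Benjamini-Hochberg adjustment over 4 tests. Without KMS34 and PE1 the mean was 0.17 (permutation p = 2e-05). Against distal regions called in 2 to 5 lines alone it was smaller, at 0.07 (permutation p = 1e-05), and with background reads taken within 250 kb in place of 1 Mb it was 0.27. In KMS26, 33.1% of private regions and 16.6% of other regions had background reads more than 1.5 times those of other lines, and in PCM6 the shares were 9.79% and 6.32%. The regions themselves do not enter these reads, but CPM is not corrected for copy number, so a region in a gained segment reaches 10 CPM more easily. Members were called in their own line alone, whereas the other regions were called in further lines too. The choice of regions thus favored a positive difference, and nothing is read from these p-values. With CPM divided by the local ratio, 7912 regions met the rule in place of 10107.

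Private regions were narrower than the other distal regions of their line, with a median width of 416 bp against 721 bp (medians over lines). Merging the peaks of several libraries widens a region, so width follows partly from the rule. Its test was among the 4 adjusted together, but nothing is read from it. GC content in the central 300 bases was lower by 1.77 ± 2.28 percentage points (SD, n = 22 lines), with 15 lines below and 6 above their other regions (sign-flip permutation test, p = 0.0014, adjusted p = 0.0017). The largest gap was in KMS27, at 39.3% against 46.0%, while in KMS21BM private regions had 51.0% against 49.3%. Private regions also lay farther from the nearest start by 0.26 ± 0.36 in log2 (SD, n = 22 lines), in 16 of 22 lines (permutation p = 0.0017, adjusted p = 0.0017). Medians of KMS28 were 35037 bp against 17298 bp and those of U266 were 11379 bp against 12489 bp. Without KMS34 and PE1, GC differed by -1.73 percentage points and distance by 0.26 in log2 (permutation p = 0.00132 and 0.00345). Against distal regions called in 2 to 5 lines alone, neither difference passed the test (GC -0.197 percentage points, permutation p = 0.574, and distance 0.04 in log2, permutation p = 0.521). Most members were intronic (49.2%) or intergenic (45.6%) and 5.20% overlapped an exon, beside 46.8%, 47.5% and 5.69% of other distal regions.

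In all, 16 motifs were searched on both strands of the central 300 bases, with N for any base. AP-1, the factor of the JUN, FOS and BATF families, was read as TGANTCA. One E-box, the site of E proteins and related helix-loop-helix factors, was read as CAGCTG and the other, the site of MYC and USF, as CACGTG. The ETS family was read as CCGGAAG, the RUNX family of blood cell regulators as TGTGGTT and the octamer (OCT) of the POU2F factors as ATGCAAAT. The GATA family, known from erythroid and T cell development, was read as AGATAAG. For CTCF, the main insulator protein, the core letters AGGGGGC were taken. The TEAD family of the Hippo pathway was read as GGAATG, and the site shared by the CEBP factors and E4BP4 as TTGCNNAA. The others, longer and with free bases at their center, were the interferon-stimulated response element (ISRE) bound by IRF factors, the ETS-IRF composite, which joins an ETS site to an IRF site, and the sites of MEF2, NF-kB, MAF and EBF. ISRE, ETS-IRF and ETS letters can overlap one another. The share of all called distal regions with a match ran from 0.613% for EBF to 23.1% for CAGCTG.

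Of the 16 motifs, 4 differed between private and other distal regions across lines at an adjusted p below 0.05. CTCF was matched in 4.01% of private and 6.70% of other regions (mean over lines; 5.44% of all called distal regions), lower in 21 of 22 lines (sign-flip permutation test, difference -2.69 ± 1.96 percentage points, SD, adjusted p = 0.00016). ISRE was matched in 8.36% against 11.6% (10.4% of all), lower in 20 of 22 lines (permutation, -3.26 ± 3.49, adjusted p = 0.0046). The ETS-IRF composite was matched in 4.42% against 5.46% (5.40% of all), lower in 17 lines, and GATA in 4.54% against 3.33% (3.72% of all), higher in 16 lines (permutation, adjusted p = 0.038 for each). When each line was left out in turn, ISRE and CTCF passed in 22 of 22 fits, whereas ETS-IRF and GATA were lost in 12 each (permutation, adjusted p up to 0.074 and 0.0753). ISRE, ETS-IRF, GATA and CTCF also passed without KMS34 and PE1. Against distal regions called in 2 to 5 lines alone, none of the 4 passed (permutation, adjusted p = 0.291 for ISRE, ETS-IRF and GATA, and 0.184 for CTCF).

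At particular motifs some lines differed from the others, though not always alone. The E-box CAGCTG was in 121 of the private regions of KMS26, or 45.5% (95% Wilson interval 39.6% to 51.5%), and in 28.4% of its other regions, and in 13.8% against 24.0% in KMS27. OCT, bound by POU2F1 and POU2F2, was in 17.6% of the 618 private regions of XG-6 (14.8% to 20.8%) against 5.62%. RUNX was in 32.3% of the 319 of KMS11 (27.4% to 37.6%) against 23.2%, but in 6.18% against 12.9% in PCM6. AP-1 was in 31.4% of the 188 of KMS27 (25.2% to 38.3%) against 23.4%, and in 4.48% against 12.1% in LP1. It was also in excess in PCM6 (29.4% against 24.8%) and H1112 (28.2% against 22.9%), while 16 of 22 lines were lower. In OPM2 the CEBP and E4BP4 letters were in 22.8% (18.7% to 27.4%) against 16.3%, and in PCM6 in 23.0% against 17.5%, while 12 of 22 lines were lower. In OCIMY5 the EBF letters were in 3.08% against 0.933%. These lines were picked from 22 for their values, so the shares carry no test, and neighboring members share their surroundings.

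**Figure D4:**
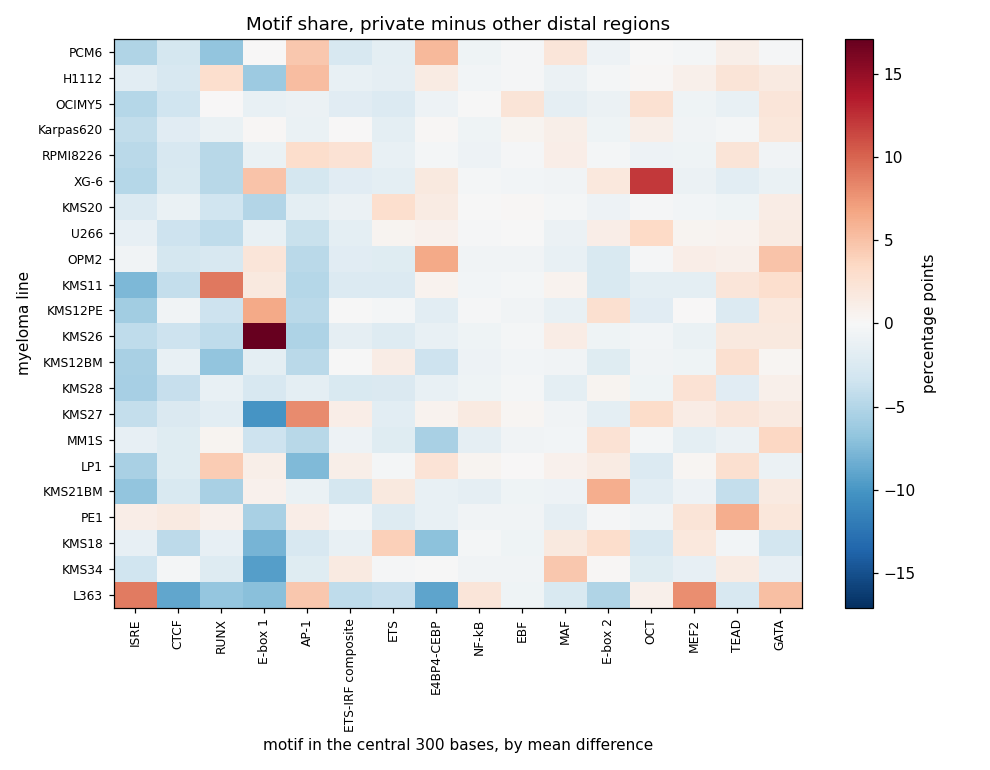
Percent of private regions with a motif minus percent of the other distal regions of the same line, for 22 lines (rows) and 16 motifs (columns, ordered by mean difference; E-box 1 is the one shown for KMS26 and E-box 2 the other), red for higher and blue for lower. KMS26 at E-box 1 (45.5% against 28.4%) and XG-6 at OCT (17.6% against 5.62%) are the strongest reds.

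Lenalidomide libraries show whether private regions were open in a second library of the same line, made from treated cells. No line had a second untreated library. An effect of the drug and a call that does not repeat therefore cannot be told apart. Of the 2201 members of the 6 treated lines, 1945 (88.4%) were called in the lenalidomide library of their line and 255 (11.6%) in that of another of the 6 lines, by line from 4.26% in KMS27 to 38.5% in L363. Of the other distal regions of these lines 85% were called in the lenalidomide library of another line. The rule required that no other untreated library called a member, so nothing is read from that gap. By line, 98.3% of members were called again in RPMI8226, 87.9% in Karpas620, 84.0% in KMS27, 84.0% in MM1S, 76.9% in L363 and 75.3% in OPM2. The lenalidomide library of RPMI8226 was the deepest, with 4248017 counts, and the others held 2168680 (L363) to 2923569 (KMS27). The part of depth in this order was not tested. Other distal regions of at least 10 CPM were called again at 98.7% in RPMI8226, 93.1% in Karpas620, 96% in KMS27, 95.8% in MM1S, 94.1% in L363 and 83.5% in OPM2. Private regions were thus called again less often in 6 of 6 lines, with differences of -17.2 to -0.435 percentage points and a mean of -9.13 ± 5.87 (SD, n = 6 lines; exact two-sided sign-flip permutation test, p = 0.03125, the smallest that 6 lines allow, adjusted p = 0.03125 over 2 tests). Between 10 and 20 CPM in both sets the mean difference was -8.09 percentage points (exact permutation p = 0.03125), and from 20 CPM up it was -2.24 (exact permutation p = 0.5). By the rule, the other distal regions had been called in at least 1 further untreated library and the members in none. The choice of regions thus favored a lower rate in members, and nothing is read from these p-values.

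The level of private regions in the lenalidomide libraries was highest in the own line. In Karpas620, members had a median of 12.1 CPM in its lenalidomide library and 0.926 CPM in the other 5, after 13.5 CPM untreated. KMS27 had 11.5 and 0.859 CPM, OPM2 12.0 and 0.863, MM1S 13.1 and 1.21, RPMI8226 15.5 and 1.36, and L363, on 26 members, 23.3 and 2.34. On the log2(CPM + 1) scale the own library exceeded the mean of the other 5 by 2.71 to 2.91, with a mean of 2.83 ± 0.08 (SD, n = 6 lines; exact sign-flip permutation test, p = 0.03125, adjusted p = 0.03125), higher in 6 of 6 lines. At other distal regions the same difference was 1.24 ± 0.19. The own library was the highest of the 6 at 2150 members (97.7%), against 46.6% of other distal regions. The rule asked for a call in the own untreated library and for none in the untreated libraries of the other 5 lines. Since untreated and lenalidomide libraries of a line were alike, the choice of regions favored this direction in every line. Nothing is therefore read from the p-value or from these shares. Both libraries of a line share its copy number, and its part in these differences was not tested.

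**Figure D5:**
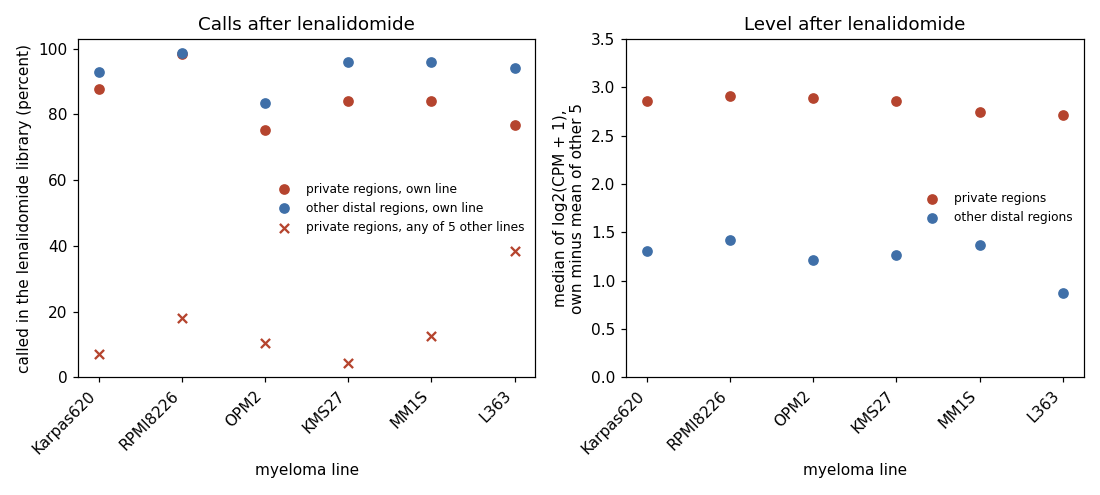
Left, percent of private (red) and other distal regions (blue) called in the lenalidomide library of their own line, and of private regions called in that of any of the other 5 lines (crosses), for 6 lines. Right, median of log2(CPM + 1) in the own lenalidomide library minus the mean of the other 5 for the same sets; private regions sit at 2.71 to 2.91 and other regions at 0.88 to 1.42.

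Chains were carried over as well where a lenalidomide library existed. The 4 members of RPMI8226 at WNT7A, a secreted Wnt ligand (chr3:13864761-14014988), were all called in its lenalidomide library with a median of 20.1 CPM, after 22.7 CPM untreated. In Karpas620 the 3 members at CWC15 and AMOTL1 (chr11:94537495-94618891) were called with a median of 26.6 CPM after 22.2. The 3 members of KMS27 near REXO1L1 and ATP6V0D2 differed, with 1 of 3 called and a median of 10.3 CPM after 13.2, and another untreated line reached 23.1 CPM there. The highest private regions of the 6 lines were each called again, with 78.6 CPM in Karpas620 after 97.1 untreated, 66.9 after 78.9 in RPMI8226, 54.3 after 51.1 in OPM2, 57.0 after 35.4 in MM1S, 29.4 after 46.9 in KMS27 and 24.0 after 32.6 in L363. None of these 6 was called in the lenalidomide library of another line, where the highest values were 2.05 to 3.62 CPM.

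Private regions of the 16 lines with no lenalidomide library numbered 7906, of which 964 (12.2%) were called in at least 1 of the 6 lenalidomide libraries, beside 89.3% of the other distal regions of those lines. The rule had left out every region called in the untreated libraries of the same 6 lines, so the low share follows in part from the choice. Leaving out every member called in the lenalidomide library of another line left 8888 of the 10107, with 1667 in H1112 and 1630 in PCM6.

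Pairs of lines that alone shared a distal region of at least 10 CPM in both were unevenly spread. A median pair shared 4 such regions, while PCM6 and RPMI8226 shared 147, H1112 and KMS27 143, and H1112 and PCM6 137. KMS34 and PE1 shared 47, and KMS12BM and KMS12PE 23. These counts were not scaled to the distal regions of a line, of which H1112 (12909) and PCM6 (12366) had the most. RPMI8226 was also the highest other line at 295 of the 1797 private regions of PCM6 (16.4%), and PCM6 at 95 of the 688 of RPMI8226 (13.8%), although these 2 libraries ranked 151 among all pairs in their correlation over distal regions (0.46). Such shares were not particular to this pair, since KMS21BM was the highest other line at 20.1% of the private regions of KMS20.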

How the data were processed

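ATAC-seq of 22 untreated myeloma lines and 6 of them after lenalidomide was analysed, with 1 library for each. The authors aligned reads to GRCh37 with Bowtie2 2.2.6, called peaks per library with MACS2 2.1.0.20151222 at a q of 0.01 and merged them (SAMtools 1.7 is also listed in the submitters' processing notes). The deposited counts are raw reads per merged region, and a second deposited table of small counts was read as the number of a library's own peaks in each region, which the files do not define. Whether reads were shifted for the transposase is not given in the sources used here. Sex chromosomes were not analysed here.

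CPM, chains (gaps of at most 100 kb), background reads within 1 Mb and motifs were computed in Python 3.11.15 with pandas 2.3.3, scipy 1.17.1 and pysam 0.24.0. TMM factors came from edgeR 4.0.16. "Other distal regions" of a line were those called there with at least 10 CPM and not private. Nearest protein-coding starts came from GENCODE on GRCh37, and other annotation from the deposited table. Tests flipped signs over lines, exactly for 6 and with 100000 draws for 22, with Benjamini-Hochberg adjustment. The member rule, background ratio and sign-flip test were tested on simulated data. With 1 library a line, p-values measure the spread between lines. Named genes were, for each line, the highest member, the gene with most members and the largest chain, then the 10 largest chains, members near translocation genes and those next to the threshold; the motif examples were picked after values were seen. Some genes of the lists are not reported here, and the counts over the lists leave them out. The members and gene lists were chosen with earlier results of these data known. Intervals cover counting error only.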

Additional observations from a re-analysis of the deposited data

Results flagged for a closer look

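Of 6 sets of values over the 6 lines with a lenalidomide library, 1 held a line far from the others, and chance alone flags about 1 set in 20. The median level of private regions in the own lenalidomide library was 23.3 CPM in L363, with RPMI8226 the nearest at 15.5 CPM, a gap of 0.655 of the whole range. L363 had 26 members, the fewest of any line.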

How the results depend on the processing

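The total of 10107 private regions became 29171 with a minimum of 5 CPM, 2055 with 20 CPM and 6697 where every other line had to be below 5 CPM. Under TMM scaling (10131), a distance above 10000 bp (6761) and KMS12BM and KMS12PE as 1 (10169) it stayed within 1.5 times. PCM6 and H1112 had the highest numbers under each of these 6 settings. The share of members within 100 kb of another (median over lines 13.5%) was 30.8% within 500 kb, 10.4% within 50 kb and 7.69% at 20 CPM. Under TMM the highest private region of KMS27 went from 46.9 to 55.5 CPM, outside its counting interval, and those of the other 21 lines stayed within theirs.

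From 20 CPM up, the lower rate of repeat calls in the own lenalidomide library was -2.24 percentage points (exact permutation p = 0.5). Without 1 line it ran from -10.9 (without RPMI8226) to -7.51 (without L363), and the own against other lenalidomide difference from 2.81 to 2.85; 5 lines cannot go below an exact p of 0.0625, so these say nothing of the threshold. Background reads were higher by 0.07 in log2 against regions called in 2 to 5 lines, 0.27 within 250 kb and 0.11 within 5 Mb. The greater distance was 0.22 in log2 at 20 CPM (16 lines, permutation p = 0.0519) and 0.039 against regions called in 2 to 5 lines, where GC was -0.197 percentage points. Without 1 line at a time, background reads ran from 0.17 to 0.18, width from -308 to -296 bp, GC from -1.93 to -1.53 and distance from 0.22 to 0.29, with no call lost for background reads, GC or distance. The number of motifs past the threshold was 4; it was 2 in the central 200 bases (ISRE and CTCF), 2 at 20 CPM (ISRE and RUNX) and 2 against regions called in 2 to 5 lines (AP-1 and RUNX), and 2 to 5 without 1 line, where ISRE and CTCF passed each time. The causes were not tested. The comparisons with regions called in 2 to 5 lines, without KMS34 and PE1 or with both as 1, between 10 and 20 CPM in both sets, and with CPM divided by the local ratio were chosen after seeing the data. The tests were paired within lines, and the labels carry no replicate numbers that could serve as a further block.

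Each line had 1 library, and 10 CPM stood for 16 counts in the shallowest, so regions near the threshold were not separated from those just below it.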
